A study of Mus musculus with 12 samples.

Results

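The 9 genes described here encode transcription factors that direct monocytic and granulocytic differentiation: Spi1, Irf8, Irf4, Cebpa, Cebpb, Cebpe, Gfi1, Klf4 and Nr4a1. They were chosen by gene symbol among 24346 symbols, with earlier results of these data known. All 9 were present in the expression table of each of 12 libraries, and all 9 passed the filter on low values in every model. The libraries were made from myeloid-derived suppressor cells (MDSCs) sorted from Hepa 1-6 tumors, a mouse hepatoma grown in the liver of wild-type C57BL/6J female mice. Monocytic M-MDSCs were sorted as CD11b+ Ly-6Chi Ly-6G- cells. The sort gate of the polymorphonuclear PMN-MDSCs is not given in the sources used here. Each subset was represented by 2 libraries from mice given vehicle, 2 from mice given MS-275 and 2 from mice given CXD101. MS-275 (entinostat) and CXD101 inhibit the class I histone deacetylases HDAC1-3. Both were given at the same dose. The mice had been selected for the proportion of MDSCs in their blood, and neither the labels nor the paper states whether a library pooled animals.

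Myeloid cells arise from progenitors in which PU.1, the product of Spi1, and C/EBPalpha, the product of Cebpa, open and activate myeloid genes. IRF8 and KLF4 then favor the monocyte, whereas GFI1 and C/EBPepsilon carry the promyelocyte through the formation of neutrophil granules. C/EBPbeta drives granulopoiesis under stress, IRF4 acts in dendritic cells and alternatively activated macrophages, and NR4A1 is required for Ly6C-low monocytes and is also an immediate early gene.

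Cebpa, Cebpe and Gfi1 were higher after either inhibitor in both subsets, and Klf4 was lower after either inhibitor in both subsets. In M-MDSCs the Cebpe calls and the Klf4 call with CXD101 were lost under some other settings and without some single libraries. Irf8 fell with MS-275 in PMN-MDSCs, was not called with CXD101 there, and was called with neither in M-MDSCs. Cebpe rose about 4-fold in PMN-MDSCs (group means 186 and 179 FPKM against 44.3 in vehicle) and about 1.5-fold in M-MDSCs. Spi1, the most abundant of the 9 per length, passed the fold change limit in no comparison. FPKM, the unit of all levels given here, counts the fragments of a gene relative to its transcript length and to the size of the library. A gene was called when limma's Benjamini-Hochberg adjusted p-value was under 0.05 and the fold change on the log2(FPKM + 1) scale was above 1.5, and "rose" and "fell" are used for such calls.

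Upstream sequences are shown for Cebpa, which rose in all 4 comparisons of an inhibitor with vehicle, for Klf4, which fell in all 4, and for Irf8, which fell in 1. The windows are the 250 bases before the transcription start in the RefSeq promoter table (GRCm38.p6), written 5′ to 3′ on the strand of the gene. Capitals mark the letters TATAAA and, on either strand, GGGCGG, the cores of the TATA box and of the GC box that SP and KLF proteins can bind.
Cebpa, chr7:35119043-35119292, plus strand: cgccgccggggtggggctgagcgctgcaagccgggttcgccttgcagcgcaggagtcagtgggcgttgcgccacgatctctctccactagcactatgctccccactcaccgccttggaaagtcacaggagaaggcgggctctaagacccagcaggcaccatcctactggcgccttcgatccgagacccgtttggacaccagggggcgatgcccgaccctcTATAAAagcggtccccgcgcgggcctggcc
Klf4, chr4:55532476-55532725, minus strand: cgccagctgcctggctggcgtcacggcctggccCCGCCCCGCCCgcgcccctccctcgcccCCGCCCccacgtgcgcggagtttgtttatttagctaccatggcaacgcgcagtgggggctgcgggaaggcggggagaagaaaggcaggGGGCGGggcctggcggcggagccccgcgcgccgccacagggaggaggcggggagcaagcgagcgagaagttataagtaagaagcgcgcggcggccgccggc
Irf8, chr8:120736108-120736357, plus strand: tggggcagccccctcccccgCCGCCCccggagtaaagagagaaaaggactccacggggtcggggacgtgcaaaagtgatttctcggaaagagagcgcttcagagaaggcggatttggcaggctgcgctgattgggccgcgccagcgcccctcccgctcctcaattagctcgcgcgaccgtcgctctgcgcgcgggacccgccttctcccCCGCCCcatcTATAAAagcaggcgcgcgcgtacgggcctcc

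The Cebpa and Irf8 windows shown each held TATAAA, which began 30 and 31 bases before the start site, and the Klf4 window held none. The Klf4 window held 4 matches to GGGCGG or its complement, the Irf8 window shown held 2 and the Cebpa window held none. A second Irf8 window, starting at 120738389 on chromosome 8, held neither TATAAA nor GGGCGG on either strand. TATAAA was present in 3 and GGGCGG in 5 of the 9 windows available for 7 genes. Their shares of 32851 such windows were 12.4% and 32.7%, and both were added to the search after the windows had been read. The letters PU.1 GAGGAAGT, IRF GAAANNGAA, NR4A AAAGGTCA, GFI1 AATCACNGC, KLF GGGTGTGG and CRE TGACGTCA were in none of the 9 windows available for 7 of the genes, searched on both strands, against 2.44%, 7.13%, 1.34%, 0.776%, 3.2% and 1.55% of all windows. The C/EBP letters TTGCNNAA, in 9.56% of all windows, were found in 1 of the 9, upstream of Gfi1 as TTGCTGAA. Spi1 and Cebpe were not in the table.

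In the GRCm38 annotation Cebpa (ENSMUSG00000034957.10) lies on chromosome 7 at 35119293 to 35121928, Klf4 (ENSMUSG00000003032.8) on chromosome 4 at 55527143 to 55532466, Irf8 (ENSMUSG00000041515.10) on chromosome 8 at 120736358 to 120756694, Gfi1 (ENSMUSG00000029275.18) on chromosome 5 at 107716657 to 107726036 and Cebpe (ENSMUSG00000052435.7) on chromosome 14 at 54710360 to 54712174. Cebpa, Cebpb and Gfi1 overlap a gene on the other strand (Gm45091, Tmem189 and A430072P03Rik), and Irf8 overlaps Gm20388 on its own strand. The libraries were stranded, but whether fragments were counted by strand is not given in the sources used here, so a part of the reads of these 4 genes could belong to the neighbor.

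The depth implied by the lowest FPKM values, if these are single reads, was 6.96 to 10.5 M reads per library (median 8.16). Pearson's r between replicate libraries, across genes, was 0.9945 to 0.9961. At this depth the least covered member, Nr4a1, rested on an estimated 49.7 to 206 reads per library. The 10 neutrophil markers examined summed to 11426 to 12081 FPKM in vehicle M-MDSCs and to 71571 to 97549 in vehicle PMN-MDSCs, and Ccr2, a receptor of inflammatory monocytes, was at 147 and 137 FPKM in the former and at 40.7 and 35.7 in the latter. The 2 genes S100a8 and S100a9 took 1.78% to 1.95% of all FPKM in vehicle M-MDSCs and 3.57% to 4.28% after an inhibitor, and 10.2% to 13.7% and 27.3% to 30.9% in PMN-MDSCs. A larger share of a few genes lowers the FPKM of all others, and values rescaled without these 2 genes are given where they change a call. In such bulk libraries fewer cells of a type and less RNA per cell cannot be told apart.

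The vehicle libraries were compared first, because they show the level of each factor in the untreated subsets. Irf8 was at 34.5 and 36.6 FPKM in M-MDSCs and at 16.5 and 11.2 in PMN-MDSCs. Klf4 was at 53.1 and 54.6 FPKM in M-MDSCs and at 18 and 17.7 in PMN-MDSCs. Gfi1, a zinc finger repressor that restrains the monocytic program, was at 12.5 and 13.9 FPKM in M-MDSCs and at 3.63 and 3.24 in PMN-MDSCs. All 3 were lower in PMN-MDSCs, with no overlap between the subsets: by a log2 fold change of -1.32 (SE 0.135, adjusted p = 9.754e-06) for Irf8, -1.54 (SE 0.103, adjusted p = 4.306e-07) for Klf4 and -1.68 (SE 0.0968, adjusted p = 1.505e-07) for Gfi1. The granulocytic regulator Gfi1 therefore had its lower vehicle level in the polymorphonuclear subset, whose libraries also held lower FPKM of the promyelocyte genes Mpo and Elane (55.3 and 25.9, and 74.7 and 35.6) than the M-MDSC libraries (298 and 257, and 436 and 440).

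Cebpb was at 163 and 159 FPKM in vehicle M-MDSCs and at 269 and 276 in PMN-MDSCs. Cebpe was at 22.7 and 25.8 FPKM in M-MDSCs and at 45.5 and 43.1 in PMN-MDSCs. Nr4a1 was at 2.97 and 2.88 FPKM in M-MDSCs and at 10 and 9.5 in PMN-MDSCs. These 3 were higher in PMN-MDSCs, with log2 fold changes of 0.76 (SE 0.149, adjusted p = 0.001159), 0.85 (SE 0.14, adjusted p = 0.0003621) and 1.46 (SE 0.121, adjusted p = 2.14e-06). Other immediate early genes stood higher in the same libraries: Fos was at 13.8 and 13.3 FPKM in M-MDSCs and at 42.6 and 38.9 in PMN-MDSCs, and Egr1 was at 11 and 11.8 against 41.6 and 40.

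Spi1 was at 301 and 322 FPKM in vehicle M-MDSCs and at 407 and 362 in PMN-MDSCs. Irf4 was at 10.5 and 11.3 against 15.5 and 14 FPKM. Cebpa was at 28 and 26.6 against 20.9 and 17.6 FPKM. The subsets did not overlap in these genes either. Such separation arises readily with 2 libraries per group, and its share over all genes was not counted, here or below. The adjusted p-values were 0.007147, 0.001719 and 0.002542, but the log2 fold changes of 0.30 (SE 0.0805), 0.41 (SE 0.0853) and -0.49 (SE 0.109) stayed within the fold limit. Cebpa passed it without PMN-MDSC vehicle replicate 1 (-0.61). In all, 3 of the 9 members were higher and 3 were lower in PMN-MDSCs, where 17.2% and 16.8% of 11662 genes tested were called in these directions.

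**Figure D1:**
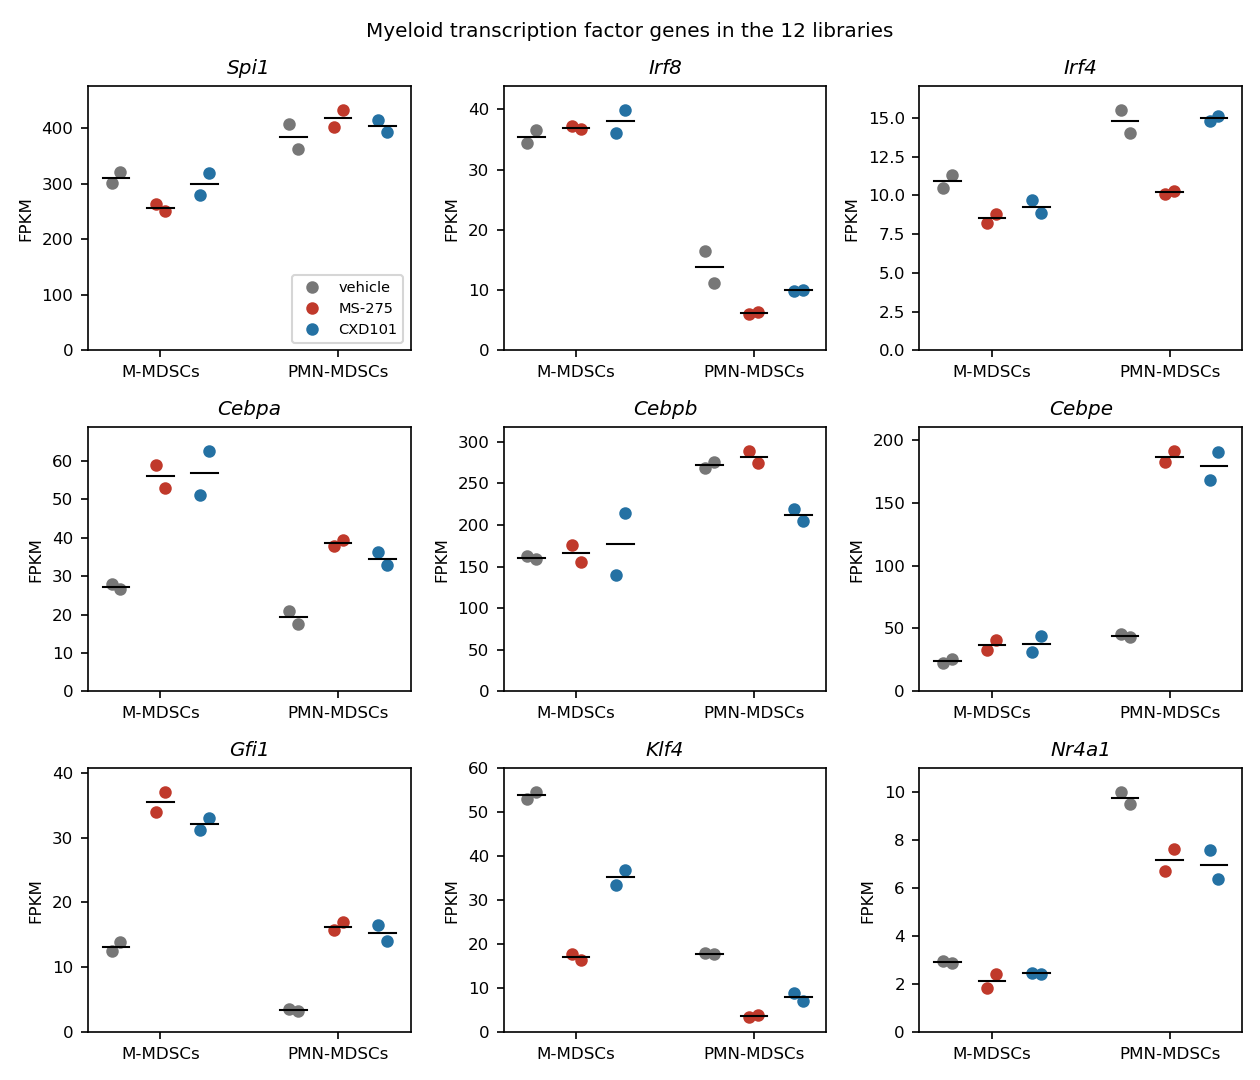
FPKM of the 9 genes (vertical axes from 0, a scale of its own for each gene) in the vehicle (gray), MS-275 (red) and CXD101 (blue) libraries of M-MDSCs and PMN-MDSCs. Each point is 1 library and each bar the mean of the 2 libraries of a group. Cebpe reaches 168 to 191 FPKM in the treated PMN-MDSC libraries against 43.1 and 45.5 in vehicle, and Klf4 is lower in the treated than in the vehicle libraries of both subsets.

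In M-MDSCs the inhibitors were compared with vehicle to ask which factors responded in the monocytic subset. Cebpa was at 59 and 53 FPKM after MS-275 and at 51.1 and 62.6 after CXD101, all above the 28 and 26.6 of vehicle. Gfi1 was at 33.9 and 37 FPKM after MS-275 and at 31.2 and 33 after CXD101, against 12.5 and 13.9. Cebpe was at 33.2 and 41.1 FPKM after MS-275 and at 31.7 and 43.7 after CXD101, against 22.7 and 25.8. Each treated library lay above both vehicle libraries in these 3 genes. The log2 fold changes of Cebpa were 1.01 (SE 0.1, adjusted p = 0.0001242) with MS-275 and 1.02 (SE 0.1, adjusted p = 0.0003866) with CXD101. Those of Gfi1 were 1.36 (SE 0.0816, adjusted p = 1.151e-05) and 1.22 (SE 0.0816, adjusted p = 7e-05). Those of Cebpe, the smallest of the 3, were 0.59 (SE 0.153, adjusted p = 0.01393) and 0.60 (SE 0.153, adjusted p = 0.02467).

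The Cebpe call in M-MDSCs rested on single libraries. With MS-275 it was lost without vehicle replicate 1 (log2 fold change 0.50, adjusted p = 0.08016) or MS-275 replicate 2 (0.44, adjusted p = 0.07603). With CXD101 it was lost without vehicle replicate 1 (0.51, adjusted p = 0.1296), vehicle replicate 2 (0.69, adjusted p = 0.05384) or CXD101 replicate 2 (0.38, adjusted p = 0.1157). Without a filter on low values its adjusted p-values were 0.05074 and 0.08452, and without the intensity trend that for CXD101 was 0.05672. The Cebpa and Gfi1 calls held without any 1 of the libraries compared, with log2 fold changes of 0.88 to 1.17 and 1.15 to 1.43.

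Klf4 was the 1 member that fell in M-MDSCs. It was at 17.8 and 16.4 FPKM after MS-275 and at 33.5 and 36.9 after CXD101, against 53.1 and 54.6 in vehicle. The 3 groups did not overlap, and the CXD101 libraries lay between the others. The log2 fold change was -1.60 (SE 0.0756, adjusted p = 4.189e-06) with MS-275 and -0.60 (SE 0.0756, adjusted p = 0.001176) with CXD101. The CXD101 value stood just past the fold limit: it came to -0.58 without vehicle replicate 2, to -0.53 without CXD101 replicate 1, to -0.54 after quantile normalization and to -0.58 after rescaling without S100a8 and S100a9, all below that limit with adjusted p-values of 0.001816 to 0.01105.

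The other 5 members were not called in M-MDSCs. Irf8 was at 37.2 and 36.7 FPKM after MS-275 and at 36.1 and 39.9 after CXD101, with log2 differences of 0.06 (95% interval -0.11 to 0.22) and 0.09 (-0.07 to 0.26) from vehicle. Irf4 at 8.21 and 8.82 FPKM and Spi1 at 263 and 251 after MS-275 lay below their vehicle libraries, by log2 differences of -0.32 (adjusted p = 0.02263) and -0.28 (adjusted p = 0.01642) that are within the fold limit. Cebpb was at 176 and 156 FPKM after MS-275 and at 140 and 214 after CXD101, the widest replicate spread among the members. Nr4a1 was at 1.86 and 2.44 FPKM after MS-275 and at 2.48 and 2.44 after CXD101, with log2 differences of -0.32 (adjusted p = 0.07699) and -0.18 (adjusted p = 0.3566).

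With MS-275, 3 of the 9 members were higher and 1 was lower in M-MDSCs, where 10.1% and 7.32% of 11078 genes tested were called. With CXD101 the counts were again 3 and 1, against 5.14% and 3% of the genes. Both comparisons used the same 2 vehicle libraries. Markers of other cells moved with these changes. The 10 neutrophil markers summed to 22041 to 26020 FPKM after MS-275 and 22001 to 23199 after CXD101. These sums were close to the FPKM of S100a8 and S100a9 alone, which took 3.57% to 4.28% of library sums of 564078 to 596407. Of the 10 markers, Mmp8 was higher and Ltf lower after MS-275. The 8 stem and progenitor markers summed to 94.2 to 95 FPKM after MS-275 and 32.7 to 33.6 after CXD101, against 11.3 to 11.8 in vehicle. Not every marker followed this sum. Meis1 was at 1.85 and 2.02 FPKM in vehicle, at 0.878 and 0.874 after MS-275 and at 0.972 and 0.699 after CXD101. Gata2 was at 0.188 and 0.327, at 2.58 and 2.33, and at 0.863 and 1.42 FPKM. The 8 macrophage markers summed to 150 to 152 FPKM in vehicle, 76.4 to 82.5 after MS-275 and 123 to 140 after CXD101, and the 8 monocyte markers to 1691 to 1763, 2901 to 2925 and 2433 to 2517. The 11 lymphocyte and NK markers summed to 6.45 to 9.83 FPKM in vehicle, 67.1 to 73.7 after MS-275 and 29.1 to 38.5 after CXD101, and Nkg7, a cytotoxic granule protein gene, was the 1 of them that reached 1 FPKM in both libraries of each M-MDSC group. It was at 9.19 and 6.01 FPKM in vehicle, at 66.3 and 72.7 after MS-275 and at 37.9 and 27.9 after CXD101. The part of such cells in the values of Cebpa, Cebpe, Gfi1 and Klf4 was not tested.

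In PMN-MDSCs the same 3 genes rose, Cebpe and Gfi1 by more than in M-MDSCs. Cebpe was at 182 and 191 FPKM after MS-275 and at 168 and 190 after CXD101, against 45.5 and 43.1 in vehicle. Gfi1 was at 15.7 and 17 FPKM after MS-275 and at 16.5 and 14.1 after CXD101, against 3.63 and 3.24. Cebpa was at 37.8 and 39.5 FPKM after MS-275 and at 36.2 and 33 after CXD101, against 20.9 and 17.6. All treated libraries again lay above both vehicle libraries. The log2 fold changes of Cebpe were 2.05 (SE 0.0763, adjusted p = 2.478e-06) with MS-275 and 1.99 (SE 0.0763, adjusted p = 4.344e-06) with CXD101. Those of Gfi1 were 1.97 (SE 0.114, adjusted p = 1.247e-05) and 1.88 (SE 0.114, adjusted p = 2.403e-05), and those of Cebpa 0.97 (SE 0.0998, adjusted p = 0.0001587) and 0.82 (SE 0.0998, adjusted p = 0.0005429).

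Klf4 fell in PMN-MDSCs from 18 and 17.7 FPKM in vehicle to 3.54 and 3.97 after MS-275 and to 8.99 and 7.09 after CXD101. The 3 groups stood apart, in the same order as in M-MDSCs. Its log2 fold changes were -1.99 (SE 0.128, adjusted p = 1.944e-05) with MS-275 and -1.07 (SE 0.128, adjusted p = 0.0005001) with CXD101. Irf8 was at 5.99 and 6.33 FPKM after MS-275 and at 9.89 and 10.1 after CXD101, against 16.5 and 11.2 in vehicle. It fell with MS-275 (log2 fold change -1.03, SE 0.163, adjusted p = 0.001319; -1.29 to -0.77 when libraries were left out in turn). With CXD101 both libraries lay below both vehicle libraries, but the log2 difference of -0.41 (SE 0.163, adjusted p = 0.07521) did not pass, and it moved with the widely spread vehicle pair: it was -0.67 (adjusted p = 0.005209) without vehicle replicate 2 and -0.15, not called, without vehicle replicate 1.

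Irf4 was at 10.1 and 10.3 FPKM after MS-275 and at 14.8 and 15.1 after CXD101, against 15.5 and 14 in vehicle PMN-MDSCs. The MS-275 libraries lay below the others, by a log2 difference from vehicle of -0.49 (SE 0.0918, adjusted p = 0.003059), whereas the CXD101 value was 0.02 (95% interval -0.19 to 0.23). Nr4a1 was at 6.73 and 7.63 FPKM after MS-275 and at 7.59 and 6.37 after CXD101, below the 10 and 9.5 of vehicle by log2 differences of -0.40 (adjusted p = 0.0246) and -0.44 (adjusted p = 0.02074). Cebpb was at 289 and 275 FPKM after MS-275 and at 219 and 205 after CXD101, with a log2 difference from vehicle of -0.36 (SE 0.0623, adjusted p = 0.002702) for CXD101 alone. These differences are all within the fold limit. Spi1 was at 403 and 433 FPKM after MS-275 and at 415 and 393 after CXD101, and both pairs overlapped the vehicle pair.

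**Figure D2:**
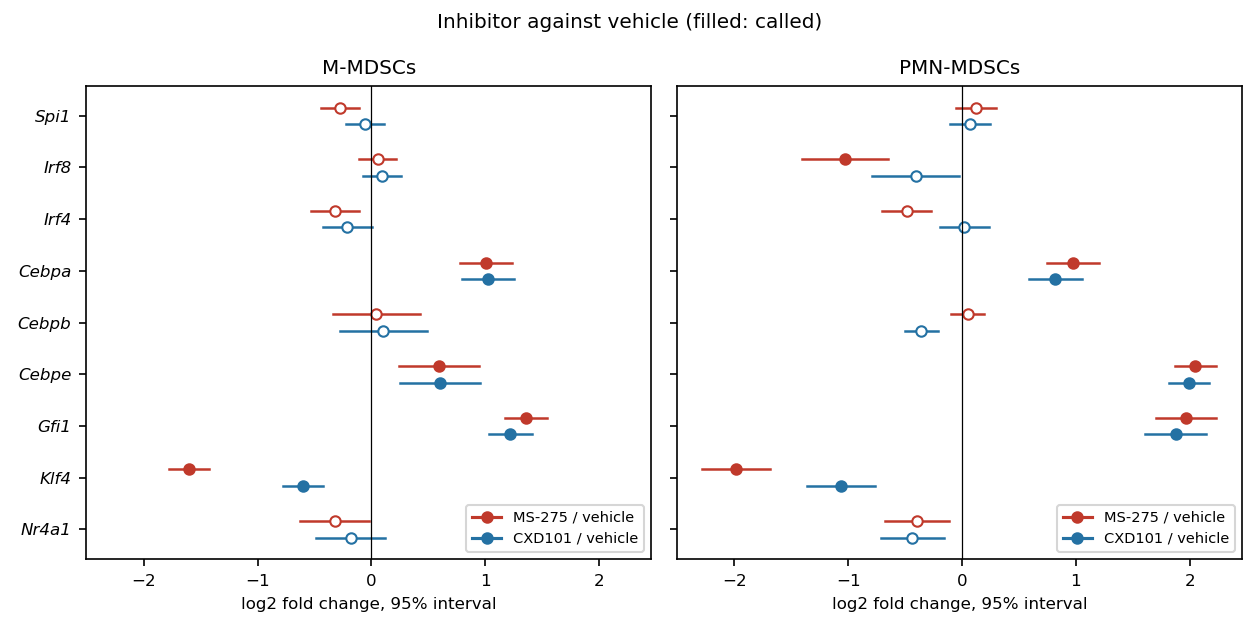
Log2 fold changes of the 9 genes against vehicle (horizontal axis) with 95% intervals from limma, for MS-275 (red) and CXD101 (blue) in M-MDSCs (left) and PMN-MDSCs (right), 2 libraries per group; filled points passed the adjusted p-value and the fold limit. Cebpa, Cebpe and Gfi1 lie to the right in both panels and Klf4 to the left, and Irf8 is filled for MS-275 in PMN-MDSCs alone.

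With MS-275, 3 members were higher and 2 were lower in PMN-MDSCs, where 14.6% and 14.2% of 11184 genes tested were called. With CXD101, 3 were higher and 1 was lower, against 11.9% and 9.54% of the genes, and the vehicle libraries were again shared. The neutrophil markers summed to 255532 to 279021 FPKM after MS-275 and 269827 to 296062 after CXD101, against 71571 to 97549 in vehicle. S100a8 and S100a9 alone took 27.3% to 30.9% of all FPKM after an inhibitor and 10.2% to 13.7% in vehicle (library sums of 656932 to 860841). The macrophage markers summed to 191 to 201 FPKM in vehicle, 129 to 143 after MS-275 and 112 to 125 after CXD101, and the dendritic cell markers to 54.4 to 62.6, 13.2 to 13.4 and 13.3 to 14.1. Other sums were higher after treatment. The 8 monocyte markers summed to 692 to 767 FPKM in vehicle, 1650 to 1852 after MS-275 and 1569 to 1782 after CXD101, most of it from Ly6c2, which was at 511 and 455, at 1487 and 1677, and at 1628 and 1418 FPKM. The stem and progenitor markers summed to 23.8 FPKM in either vehicle library, to 63.7 to 64.4 and to 57.5 to 58.4. Gata2, which is 1 of them, did not follow this sum, at 2.29 and 2.09, at 0.774 and 1.51, and at 2.23 and 1.65 FPKM. The lymphocyte and NK markers summed to 3.38 to 6.03, 43.1 to 45.8 and 30.5 to 37.2 FPKM, with Nkg7 at 1.1 and 1.7, at 41.7 and 40.2, and at 26.5 and 33.6. The part of such cells in the values of the members was not tested.

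MS-275 and CXD101 were then compared with each other, in 18 tests of a member within a subset. Klf4 was lower after MS-275 in both subsets. In M-MDSCs its log2 difference was -0.999 (SE 0.0756, adjusted p = 0.0004368; -1.07 to -0.93 when libraries were left out in turn). In PMN-MDSCs it was -0.92 (SE 0.128, adjusted p = 0.02514), and this call was lost without MS-275 replicate 1 (-0.85, adjusted p = 0.1252), MS-275 replicate 2 (-0.98, adjusted p = 0.09975), CXD101 replicate 1 (-0.77, adjusted p = 0.1731) or CXD101 replicate 2 (-1.07, adjusted p = 0.08322). The MS-275 libraries nevertheless lay below the CXD101 libraries in both subsets. In PMN-MDSCs Irf8 was also lower after MS-275 by a log2 difference of -0.62 (SE 0.163), with an adjusted p of 0.1418, which became 0.03894 in a model of the 4 libraries compared and 0.03729 in a model of all 12. Irf4 differed by -0.51 (adjusted p = 0.05283) and Cebpb by 0.41 (adjusted p = 0.03051), the latter within the fold limit.

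The 3 genes that rose showed no difference between the inhibitors that passed the test. In M-MDSCs the 95% interval of the log2 difference was -0.25 to 0.21 for Cebpa, -0.36 to 0.34 for Cebpe and -0.05 to 0.32 for Gfi1. In PMN-MDSCs it was -0.08 to 0.39, -0.12 to 0.24 and -0.17 to 0.36. In M-MDSCs 0 members were higher and 1 was lower after MS-275 than after CXD101, where 3.22% and 1.17% of genes were called, and limma gave an unadjusted p under 0.05 for Spi1 (0.01779, log2 difference -0.22) and Klf4. In PMN-MDSCs the counts were again 0 and 1, against 0.465% and 0.34% of genes.

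Whether a response differed between the subsets was tested by an interaction term in 1 model over the 12 libraries. The MS-275 response of Cebpe was larger in PMN-MDSCs by 1.46 on the log2 scale (SE 0.199, adjusted p = 0.0004524) and the CXD101 response by 1.39 (SE 0.199, adjusted p = 0.0008685). That of Gfi1 was larger by 0.61 (SE 0.137, adjusted p = 0.007207) and 0.66 (SE 0.137, adjusted p = 0.006518). The MS-275 response of Irf8 was lower in PMN-MDSCs by -1.09 (SE 0.19, adjusted p = 0.001958), since Irf8 was lower in the treated PMN-MDSC libraries and not in the treated M-MDSC libraries. No difference in the Cebpa response passed the test, with 95% intervals of -0.37 to 0.31 for MS-275 and -0.55 to 0.13 for CXD101. Klf4 differed by -0.38 (adjusted p = 0.06965) and -0.46 (adjusted p = 0.04129), both within the fold limit.

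The Gfi1 difference depended on the scaling and on single libraries. For MS-275 it fell under the fold limit after quantile normalization (0.46), after rescaling without S100a8 and S100a9 (0.49), and without M-MDSC vehicle replicate 2 (0.54), M-MDSC MS-275 replicate 1 (0.55), PMN-MDSC vehicle replicate 2 (0.55) or PMN-MDSC MS-275 replicate 2 (0.55). For CXD101 it did so after quantile normalization (0.56) and without PMN-MDSC CXD101 replicate 1 (0.55). For the CXD101 response, Irf8 passed without PMN-MDSC vehicle replicate 2 (-0.76) and was at -0.24 without replicate 1 of that group. Cebpb passed without M-MDSC CXD101 replicate 1 (-0.77) and was at -0.16 without replicate 2, and Klf4 passed without PMN-MDSC CXD101 replicate 1 (-0.62) and was at -0.31 without replicate 2. The values with all libraries were -0.50, -0.47 and -0.46.

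For MS-275, the difference (PMN-MDSC minus M-MDSC response) was called as positive for 2 members and as negative for 1, where 8.65% and 9.48% of 11662 genes were called as higher and lower differences. Rescaling without S100a8 and S100a9 changed the number of these genes from 1009 higher and 1106 lower to 723 and 1475, and moved the median of all genes from 0.018 to -0.090 on the log2 scale. For CXD101, 2 members were higher and 0 were lower, against 7.31% and 6.59%, and for the 0 limma gave an unadjusted p under 0.05 for Irf8 (0.02403) and Klf4 (0.009279).

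**Figure D3:**
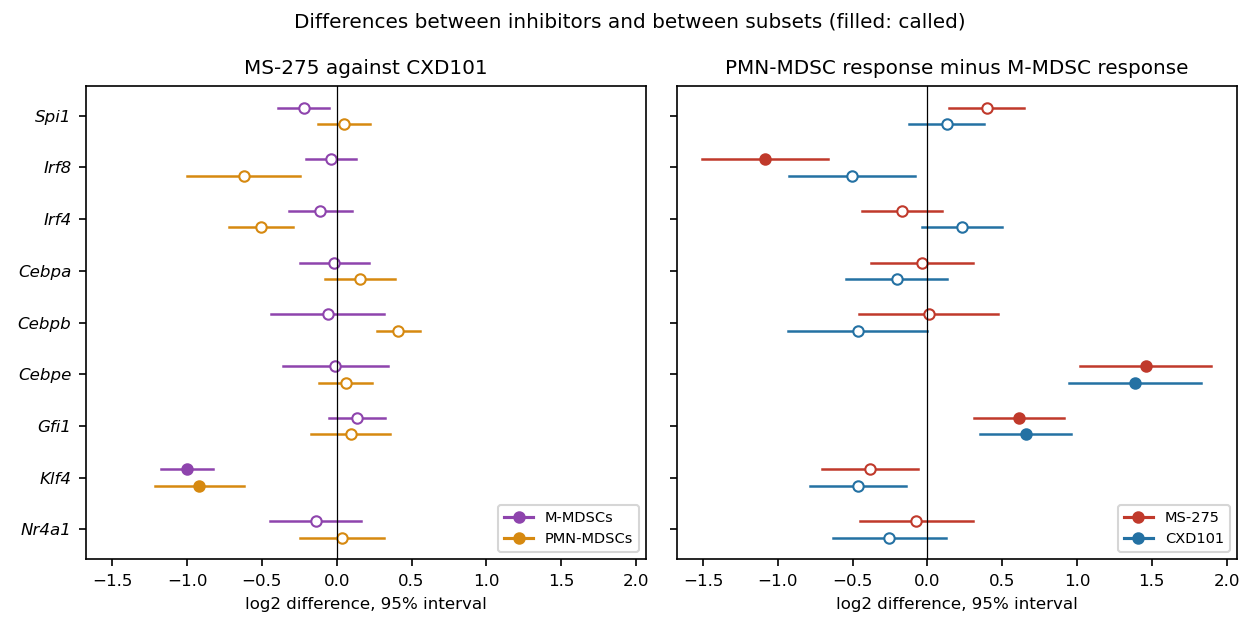
Log2 differences of the 9 genes (horizontal axis) with 95% intervals from limma. Left, MS-275 against CXD101 in M-MDSCs (purple) and PMN-MDSCs (orange); right, the response in PMN-MDSCs minus that in M-MDSCs for MS-275 (red) and CXD101 (blue); filled points passed the adjusted p-value and the fold limit. Klf4 is the filled gene on the left, at -0.999 and -0.92, and Cebpe has the largest positive difference on the right, 1.46 and 1.39.

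Over the 6 groups, Klf4 had the widest range of group means, 14.3-fold, followed by Gfi1 (10.3-fold), Cebpe (7.69-fold) and Irf8 (6.17-fold). Spi1 (1.63-fold), Cebpb (1.75-fold) and Irf4 (1.76-fold) varied least. Gfi1 was ordered M-MDSCs with MS-275 (35.4 FPKM), M-MDSCs with CXD101 (32.1), PMN-MDSCs with MS-275 (16.3), PMN-MDSCs with CXD101 (15.3), vehicle M-MDSCs (13.2) and vehicle PMN-MDSCs (3.43), so that treated PMN-MDSCs stood slightly above vehicle M-MDSCs, and in this order only the treated PMN-MDSC groups overlapped with each other. Klf4 ran from vehicle M-MDSCs (53.9 FPKM) through M-MDSCs with CXD101 (35.2), vehicle PMN-MDSCs (17.8), M-MDSCs with MS-275 (17.1) and PMN-MDSCs with CXD101 (8.04) to PMN-MDSCs with MS-275 (3.76). MS-275-treated M-MDSCs and vehicle PMN-MDSCs thus overlapped in Klf4, and all other neighbors in that order were apart.

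The genes whose levels most resembled a member's over the 12 libraries were named from 9284 genes by Pearson's r of log2(FPKM + 1). Ltb4r1, a leukotriene receptor of neutrophils, was the most like Cebpe (r = 0.994), and Prss57, a neutrophil granule protease, the most like Gfi1 (r = 0.991). Acsl5 was the most like Klf4 (r = 0.988), Alg8 the most like Irf8 (r = 0.993), Cbx6 the most like Cebpa (r = 0.980), Slc11a1 the most like Nr4a1 (r = 0.992) and Dok3 the most like Spi1 (r = 0.980). Scyl3 was the most like Cebpb (r = 0.957) and Atp6v1f the most like Irf4 (r = 0.936). These values describe 6 groups of 2 libraries that share subset, treatment and depth, and carry no test.

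Other transcription factors and cofactors were counted from 6 lists of 107 genes in all, of which 106 were in the files. These lists, too, were chosen with earlier results of these data known. In M-MDSCs 12 of 92 tested (13%) were higher and 20 (21.7%) were lower after MS-275, against 10.1% and 7.32% of all genes. After CXD101 they were 7 (7.61%) and 11 (12%), against 5.14% and 3%. The C/EBP and bZIP factors other than the members had 1 of 21 higher and 9 lower after MS-275, with a median log2 fold change of -0.27 against -0.06 over all genes. The ETS and core hematopoietic factors had 7 of 22 higher and 2 lower, with a median of 0.25. In PMN-MDSCs 18 of 96 (18.8%) were higher and 18 (18.8%) lower after MS-275, against 14.6% and 14.2% of all genes, and 16 (16.7%) and 13 (13.5%) after CXD101, against 11.9% and 9.54%. The ETS and core factors had 9 of 22 higher and 2 lower after MS-275 and 7 and 1 after CXD101.

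Among these factors Myb, which sustains immature progenitors, rose in M-MDSCs from 12.4 and 11.1 FPKM to 53.1 and 56.4 after MS-275 (log2 fold change 2.13, SE 0.0835, adjusted p = 1.757e-06) and to 38.5 and 34.9 after CXD101 (1.56, adjusted p = 2.47e-05). Hoxa9, another progenitor factor, rose from 1.1 and 0.707 FPKM to 6.04 and 6.31 after MS-275 (1.92, adjusted p = 2.188e-05) and to 4.06 and 3.98 after CXD101 (1.41, adjusted p = 0.0003124). Id3, an inhibitor of helix-loop-helix proteins, rose by 1.71 and 1.68 on the log2 scale with MS-275 and CXD101, and its relative Id1 by 0.78 and 0.66. All treated libraries of these genes lay above the vehicle libraries, a separation that the rule naming them required in the comparison that selected each gene.

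Relb, an NF-kB subunit, fell in M-MDSCs by -1.62 with MS-275 and -1.11 with CXD101 on the log2 scale. Batf3, a factor of conventional dendritic cells, fell by -1.42 and -1.81 with wide standard errors (0.458 for both), and the stress-responsive Atf3 by -1.18 and -1.11. In PMN-MDSCs the ETS factor Erg rose from 2.03 and 3.06 FPKM to 15.8 and 17.7 after MS-275 (2.34, adjusted p = 2.696e-05) and to 14.9 and 18.1 after CXD101 (2.31, adjusted p = 4.554e-05). Ets1 rose by 2.19 and 1.94, and Klf5 by 1.72 and 1.37, the opposite direction to Klf4.

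Maf, a macrophage bZIP factor, fell in PMN-MDSCs from 7.32 and 8.1 FPKM to 1.64 and 1.08 after MS-275 (log2 fold change -1.89, adjusted p = 6.292e-05) and to 1.46 and 1.64 after CXD101 (-1.77, adjusted p = 0.0001396). Egr2, an immediate early zinc finger gene, fell by -1.35 and -1.26. Irf5, which drives inflammatory cytokine genes, fell by -1.29 with MS-275, from 147 and 134 FPKM to 55.3 and 58.2, and by -1.05 with CXD101, to 72.5 and 62.7. Batf3 fell by -1.13 and -1.23. No treated library of these genes reached a vehicle library, which the naming rule again required in the comparison that selected each gene.

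Lists of genes known to depend on or be bound by the factors were counted beside them. A link between the level of a factor and the genes of its list was not tested. The lists were chosen with earlier results of these data known, so their counts are descriptive and give no independent support. The shares of all genes called, as given for the members, were 14.6% higher and 14.2% lower with MS-275 and 11.9% and 9.54% with CXD101 in PMN-MDSCs, and 10.1% and 7.32%, and 5.14% and 3%, in M-MDSCs. All 9 secondary granule genes that require C/EBPepsilon or are expressed with them rose in PMN-MDSCs with either inhibitor, with median log2 fold changes of 1.94 and 1.77 against -0.03 over all genes in both comparisons. Ngp, a granule protein, was at 1494 and 1625 FPKM in vehicle, at 14556 and 14306 after MS-275 and at 19038 and 19538 after CXD101. Ltf (lactoferrin) was at 693 and 760, at 4077 and 4098, and at 4945 and 4981 FPKM in these groups. Camp, the cathelicidin precursor, was at 295 and 278, at 1821 and 1954, and at 2300 and 2380 FPKM. Every treated library of these genes was above every vehicle library, and 4 of the 9 genes (Camp, Ltf, Mmp8 and Ngp) also belong to the neutrophil markers.

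The same list was mixed in M-MDSCs, where MS-275 gave 3 higher and 2 lower and CXD101 gave 3 higher and 0 lower of 9. Mmp8, a neutrophil collagenase, was at 117 and 107 FPKM in vehicle and at 768 and 801 after MS-275, whereas Ltf was at 73.3 and 102 in vehicle and at 29.1 and 31.8 after MS-275 (log2 fold change -1.48). The CXD101 libraries had Ltf at 82.1 and 92.2 FPKM. Of the 6 primary granule genes, 4 rose in M-MDSCs with either inhibitor: Elane, neutrophil elastase, went from 436 and 440 FPKM to 2064 and 2244 after MS-275 and to 1660 and 1551 after CXD101. In PMN-MDSCs 2 of the 6 were higher and 1 was lower with either inhibitor.

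Of 13 monocyte genes bound by IRF8 and PU.1, 7 fell and 1 rose in PMN-MDSCs with MS-275, and 6 fell and 1 rose with CXD101. Csf1r, the M-CSF receptor, was at 160 and 145 FPKM in vehicle, at 59.9 and 64.1 after MS-275 and at 72.4 and 71.4 after CXD101, opposite in direction to the summed monocyte markers, of which it is 1. Ly86, also called MD-1, was at 24.8 and 23, at 4.61 and 6.39, and at 9.68 and 9.2 FPKM. The 1 that rose was Cybb, an NADPH oxidase subunit that also stands in the granule list, at 200 and 209 FPKM in vehicle and at 492 and 481 after MS-275. In M-MDSCs 4 of 11 fell and 1 rose with MS-275 and 3 fell and 1 rose with CXD101. Among them was Cd74, the invariant chain, at 161 and 148 FPKM in vehicle, at 54 and 59.3 after MS-275 and at 56.1 and 47.2 after CXD101. Irf8 itself was not called in M-MDSCs.

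Of 8 IRF4-associated genes tested in PMN-MDSCs, 5 fell and 1 rose with either inhibitor. Irf4 itself was at its vehicle level after CXD101. After MS-275 it was lower by a log2 difference of -0.49 (limma adjusted p = 0.003059), within the fold limit. Ccl17, a dendritic cell chemokine, was at 128 and 111 FPKM in vehicle, at 12.6 and 13.5 after MS-275 and at 15.7 and 11.1 after CXD101. Mgl2, a lectin of dendritic cells and macrophages, was at 34.5 and 27.3, at 1.84 and 1.2, and at 5.11 and 4.09 FPKM. In M-MDSCs 3 of 6 fell with either inhibitor and 1, Cd24a, rose with MS-275 (log2 fold change 0.99), whereas Ccl17 was at 41.8 and 28.3, at 2.21 and 1.75, and at 4.98 and 5.93 FPKM. Of the genes that depend on NR4A1 in Ly6C-low monocytes, 3 of 9 (33.3%) were higher in PMN-MDSCs with either inhibitor, and 3 (33.3%) were lower with MS-275 and 2 (22.2%) with CXD101. The lists include Irf4 and Nr4a1 themselves, which were not called in these comparisons.

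**Figure D4:**
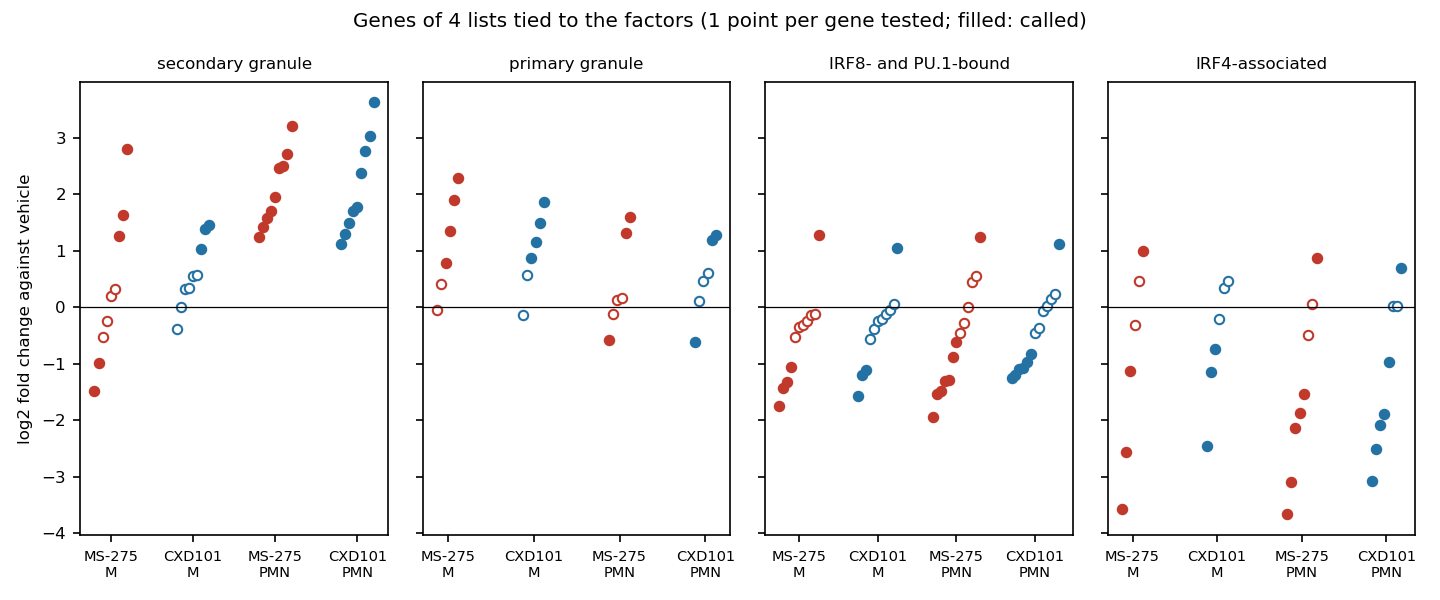
Log2 fold changes against vehicle (vertical axis) of the genes of 4 lists linked to the factors, 1 point per gene tested, for MS-275 (red) and CXD101 (blue) in M-MDSCs (M) and PMN-MDSCs (PMN); filled points passed the adjusted p-value and the fold limit. All 9 secondary granule genes are filled and above 0 in PMN-MDSCs, whereas in M-MDSCs 2 of them are filled below 0 with MS-275.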

How the data were processed

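RNA-seq was analyzed in 12 libraries, 2 for each of 6 groups taken from the submitters' labels. The authors deposited 1 table of FPKM per library for 24346 gene symbols, of which 16434 were above 0 in at least 1 library. The submitters' processing notes name TopHat2 2.1.1, Bowtie2 2.2.8, SAMtools 0.1.18, Cuffdiff 2.2.1 and the mm10 build. FPKM are already scaled to library size and transcript length, and whether Cuffdiff rescaled between libraries is not given in the sources used here. The libraries were poly(A)-selected, stranded and single-end. The labels and the paper name different RNA kits (miRNeasy Micro and Mini), and the PMN-MDSC libraries are described by the labels alone.

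The log2(FPKM + 1) values were fitted with limma 3.58.1 (R 4.3.3) with an intensity trend, over all genes with at least 1 FPKM in at least 2 libraries of the model, with Benjamini-Hochberg adjustment of its p-values. Comparisons within a subset used its 6 libraries, and comparisons between subsets used all 12. The limits of 0.05 and 1.5 follow the paper's methods. On simulated data, 172 of 200 genes changed by 1 on the log2 scale were called for MS-275 in M-MDSCs, with 4 false calls among 10924 genes, 166 of 200 in PMN-MDSCs, with 10 among 11037, and 144 of 200 for the difference of the MS-275 response between subsets, with 1 among 11244. The simulated noise was normal and independent between libraries, and all other genes had equal means in all groups. More genes changed in the data, with a shift in S100a8 and S100a9, so these rates need not hold there. The labels do not say that the 2 libraries of a group came from separate mice, so p-values measure the spread between libraries, which may be technical. The paper states 2 biological replicates for M-MDSCs. Depth was inferred from FPKM values under 0.5 among genes with a single annotated transcript of at least 1000 bp. Each such value was taken as a single read, and the most frequent depth this implied was used. The estimated read numbers rest on that assumption.

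The members and the gene lists were chosen with earlier results of these data known. The text names the 9 members, the 3 called genes with the largest increase and decrease per inhibitor and subset over the factor lists (mean of at least 5 FPKM in the higher group, groups not overlapping) and the 3 most alike genes per member, of which the first is printed. A gene that this rule names is not reported here. Genes of the linked lists named beside them were chosen after their values were seen. The alternatives were the pseudocount, the filter, 3 scalings, the variance model, the fold limit, the libraries in the model, the replicate block and leaving out each library. Sequences came from the RefSeq promoter table (GRCm38.p6), and no protein sequences were used here.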

Additional observations from a re-analysis of the deposited data

Results flagged for a closer look

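The 5 results given here were singled out because the response of a gene to an inhibitor differed between the subsets by the interaction test in limma over 12 libraries. The MS-275 response in PMN-MDSCs minus that in M-MDSCs was -1.085 for Irf8, 1.459 for Cebpe and 0.6121 for Gfi1 on the log2 scale, and the CXD101 response differed by 1.389 for Cebpe and 0.6561 for Gfi1. Irf8 lay at 5.99 and 6.33 FPKM in MS-275-treated PMN-MDSCs, below both vehicle libraries (16.5 and 11.2), while its M-MDSC libraries after MS-275 (37.2 and 36.7) lay above theirs (34.5 and 36.6). Cebpe and Gfi1 moved in the same direction in both subsets and differed in size. The Gfi1 differences were under the fold limit after quantile normalization (0.46 and 0.56). The summed FPKM of the neutrophil markers was higher in the same PMN-MDSC libraries, and their part in these differences was not tested.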

How the results depend on the processing

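Of 1239 alternative fits of the 81 member results, 1154 kept the direction and the side of the threshold, 37 lost a call, 7 gained one and 41 changed sign. None of the sign changes concerned a member that passed the adjusted p-value, and the values were small.

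Quantile normalization turned Spi1 to 0.018 for CXD101 in M-MDSCs and to -0.0084 for MS-275 against CXD101 in PMN-MDSCs. For MS-275 against CXD101 in M-MDSCs it turned Irf8 to 0.044, Cebpa to 0.064, Cebpb to 0.035 and Cebpe to 0.068, and for the MS-275 difference between subsets Cebpb to -0.15 and Nr4a1 to 0.17. Rescaling without S100a8 and S100a9 turned Irf8 to 0.011, Cebpa to 0.034 and Cebpe to 0.039 for MS-275 against CXD101 in M-MDSCs, Irf4 to -0.0021 for CXD101 in PMN-MDSCs and Cebpb to -0.11 for the MS-275 difference. Median-of-ratios scaling gave 0.013 for Cebpa and 0.018 for Cebpe in the first of these comparisons.

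Leaving out 1 library turned signs within these ranges: in M-MDSCs Cebpb -0.045 to 0.13 for MS-275 and -0.20 to 0.41 for CXD101, and Spi1 -0.15 to 0.040 for CXD101. For MS-275 against CXD101 in M-MDSCs they were -0.24 to 0.21 for Cebpe, -0.16 to 0.13 for Cebpa, -0.37 to 0.24 for Cebpb and -0.11 to 0.031 for Irf8. For CXD101 in PMN-MDSCs they were -0.049 to 0.089 for Irf4 and -0.012 to 0.16 for Spi1. For MS-275 against CXD101 in PMN-MDSCs they were -0.0039 to 0.099 for Spi1, -0.073 to 0.15 for Nr4a1, -0.028 to 0.15 for Cebpe and -0.0099 to 0.20 for Gfi1. For the MS-275 difference they were -0.081 to 0.096 for Cebpb, -0.15 to 0.086 for Cebpa and -0.21 to 0.060 for Nr4a1.

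Counts of members called also moved. The 1 lower member (Klf4) for CXD101 in M-MDSCs became 0 after quantile normalization, rescaling or a fold limit of 2, and 0 to 1 when libraries were left out. For MS-275 against CXD101 the 1 lower member became 0 in both subsets at a fold limit of 2, and in PMN-MDSCs also without a filter, without the intensity trend and in each leave-out fit (0 to 0), and 2 with the 4 libraries compared or with all 12. The lower members for CXD101 in PMN-MDSCs were 1 to 2 over leave-out fits. At a fold limit of 2, 1 member was higher in vehicle PMN-MDSCs, and 1 for each difference between subsets. For these differences, quantile normalization gave 1 higher member, rescaling 1 for MS-275, and leave-out fits 1 to 2 higher for either and 0 to 1 lower for CXD101. The cause of these changes was not tested, other than that a fold limit of 2 excludes smaller values.

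With the replicate number as a block, Klf4 for MS-275 against CXD101 in PMN-MDSCs stayed the 1 lower member, and the block changed no count of members called. Over all genes it left 38 higher and 25 lower calls there in place of 52 and 38. Deviations of same-numbered libraries correlated at -0.126 to 0.179, so the numbers are not shown to pair libraries. That comparison was the least settled: 3 and 1 genes were called without a filter, 23 and 12 without the trend, 85 and 66 with 12 libraries, and 5 to 13 and 4 to 13 when a library was left out. In M-MDSCs a minimum of 5 FPKM left 579 genes higher and 690 lower for MS-275 in place of 1123 and 811, which turned the majority to lower genes. It left 343 and 248 for CXD101 in place of 569 and 332, and 158 and 110 for MS-275 against CXD101 in place of 357 and 130. In PMN-MDSCs the nearly even split for MS-275, 1628 higher and 1586 lower, also turned to lower genes. It became 1112 and 1277 at a minimum of 5 FPKM and 1492 and 1562 after quantile normalization. After rescaling without S100a8 and S100a9 it was 1490 and 1766. A leave-out fit leaves 1 group with a single library, which is assumed to vary like the others. The depth, an estimated 49.7 to 206 reads for Nr4a1 and 72.5 or more for Gfi1, limits the precision of the lowest values.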
